A study of Mus musculus with 2 samples.

Results

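The 35 genes described here build lipid: 13 make, desaturate, elongate, activate or carry fatty acids, 4 turn fatty acids into phospholipid, and 18 make or regulate sterol. They were chosen by symbol, and 35 of the 31053 genes in each count matrix matched. The study sorted lung cells that were Cd31-/Cd45-/Epcam+ from mice aged 8 to 10 weeks, 1 week after bleomycin at 1.35 U/kg, a drug that injures the alveolar lining, and made 1 droplet library from Pclaf WT mice and 1 from Pclaf KO mice, a knockout line made earlier, in which the gene of the PCNA-binding replication factor Pclaf is disrupted. Both groups received bleomycin, so neither shows uninjured lung. The labels do not say how many animals went into a library.

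Type 2 alveolar (AT2) cells secrete surfactant, a film that is mostly phosphatidylcholine and also holds cholesterol. They make much of its fatty acid themselves: acetyl-CoA is carboxylated, built into palmitate by fatty acid synthase, desaturated or elongated, and joined to glycerol and choline. Sterol synthesis starts from the same acetyl-CoA but runs through mevalonate, and the transcription factors Srebf1 and Srebf2 are known to drive the fatty acid and the sterol genes respectively. After injury some AT2 cells pass through a Krt8+ transitional state towards flat type 1 (AT1) cells, and some raise Lcn2, a secreted protein of inflammation that binds iron-carrying siderophores.

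Cells were assigned to classes by marker lists, and a level is the UMIs (distinct captured molecules) of a gene per 1000000 UMIs summed over a class (CPM), with a 95% Poisson interval for counting error. Since the kit counts 1 end of each transcript, levels were not divided by length. Each genotype gave 1 library, so no difference below has a test, and genotype, library and animals cannot be told apart. The intervals leave out the spread between animals. A member counts as higher or lower in a class when its level differs by at least 1 log2 unit and it had at least 50 UMIs over both classes. In Pclaf WT 31 of the 35 members passed this limit for Lcn2-high over Lcn2-low AT2 cells, 32 for transitional and for AT1 cells and 34 for alveolar macrophages, and in Pclaf KO 34 passed in each, all but Elovl6.

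AT2 cells with under 10 Lcn2 UMIs per 10000 are called Lcn2-low (451 cells in Pclaf WT, 4236 in Pclaf KO) and those with at least 30 are called Lcn2-high (119 and 740). The cells between the limits numbered 200 and 1883, and 72 and 611 AT2 barcodes poor in nuclear RNA were set apart. Called doublets made up 19.5% of Lcn2-low and 5.88% of Lcn2-high cells in Pclaf WT, and 4.27% and 1.76% in Pclaf KO. All 9 AT2 markers, which also defined the class, were highest in AT2 cells in both libraries. Transitional cells numbered 164 and 709 and AT1 cells 174 and 417. Of the 10 markers that defined the transitional class, 6 were highest in it. Pclaf itself lay at 39.3 CPM over the Pclaf WT library and 5.19 over the Pclaf KO library, which differ in their mix of cells. By class it lay at 9.73 and 2.91 CPM in Lcn2-low, 14.2 and 6.53 in middle and 3.52 and 7.36 in Lcn2-high AT2 cells. It lay at 12.2 and 7.31 in transitional cells, 6.17 and 0 in AT1 cells, and 97.3 and 15.8 in alveolar macrophages. Cells outside the sort gate were common in Pclaf WT: epithelial classes made up 7.72% of its assigned cells and 77.7% in Pclaf KO, so that macrophages could be read in Pclaf WT (828 alveolar) but barely in Pclaf KO (43). The libraries held 98171818 and 111267567 UMIs over 30669 and 17172 barcodes, with medians of 2105 UMIs per barcode in Pclaf WT and 5682 in Pclaf KO, and 163 barcode sequences occurred in both libraries.

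The methods state that male mice were used, but both libraries held cells with Xist, the RNA of the inactive X chromosome, and cells with the Y-linked genes Ddx3y, Eif2s3y, Uty and Kdm5d. Cells with Xist and none of the 4 Y-linked genes (Xist-only) made up 28.4% of Lcn2-low and 16.0% of Lcn2-high AT2 cells in Pclaf WT. In the middle cells between the Lcn2 limits they made up 38.5%, so their share did not move one way with Lcn2 there. In Pclaf KO they made up 46.9% of Lcn2-low, 74.0% of middle and 88.8% of Lcn2-high cells. The main results on Lcn2 are also given within Xist-only and within Y-only cells.

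Of the 35 members, 28 had a promoter entry in RefSeq (GRCm38.p6). The box CCAAT, on either strand, lies within 250 bases before the start of 13 of 14 sterol genes, 6 of 10 fatty acid genes and 3 of 4 phospholipid genes with an entry, against 37.5% of all 27025 genes. TCACNCCAC, one spelling of a sterol regulatory element searched on both strands, lies there in Hmgcs1 and Pcyt1a, 7.14% of the members with an entry, and in 1.22% of all genes. In the Fasn stretch the CCAAT followed by tgg also holds an overlapping ATTGG, whose last letters are left in lower case. In the other stretches shown the motifs do not overlap. The stretches below are shown because they hold these letters before members described further on. They are written 5' to 3' on the gene's strand, and capitals mark either motif (ATTGG is CCAAT on the other strand).
Hmgcs1 (chr13:119690181-119690330, + strand): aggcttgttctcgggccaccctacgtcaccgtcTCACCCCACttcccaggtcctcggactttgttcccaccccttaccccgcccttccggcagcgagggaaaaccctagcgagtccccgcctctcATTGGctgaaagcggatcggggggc
Mvd (chr8:122443425-122443502, - strand): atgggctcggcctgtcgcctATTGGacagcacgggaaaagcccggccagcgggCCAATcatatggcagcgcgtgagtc
Insig1 (chr5:28071176-28071220, + strand): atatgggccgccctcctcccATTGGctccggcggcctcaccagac
Fasn (chr11:120824585-120824657, - strand): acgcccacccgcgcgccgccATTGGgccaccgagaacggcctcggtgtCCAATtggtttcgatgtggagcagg
Elovl1 (chr4:118428038-118428082, + strand): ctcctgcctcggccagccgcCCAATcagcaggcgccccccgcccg
A match describes the letters only, and binding was not measured.

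AT2 cells held more fatty acid gene RNA than any other class, while the sterol genes were spread more evenly. The 13 fatty acid genes summed to 6279 (95% interval 6182 to 6376) CPM in Lcn2-low AT2 cells of Pclaf WT and to 7384 (7353 to 7415) in Pclaf KO. Among the other classes the next highest sums were those of Spp1 macrophages, at 4773 in Pclaf WT and 5767 in Pclaf KO, where Fabp5 alone made up 91.9% and 89.7%. Without Fabp5, the fatty acid genes of Spp1 macrophages came to 388 and 593 CPM, against 5667 and 6519 in Lcn2-low AT2 cells.
The 18 sterol genes summed to 1190 (1148 to 1233) CPM in Lcn2-low AT2 cells of Pclaf WT, 1036 (973 to 1102) in transitional cells and 947 (923 to 972) in alveolar macrophages. In Pclaf KO the same sums were 985 (973 to 996), 873 (847 to 901) and 962 (866 to 1066).
The 4 phospholipid genes summed to 450 in Lcn2-low AT2 cells of both libraries, a level that ciliated cells also held, at 490 and 488. Ranked over the assigned classes with at least 100000 summed UMIs, 8 of the 13 fatty acid genes were highest in AT2 cells in both libraries, namely Acly, Me1, Acaca, Fasn, Elovl1, Scd1, Srebf1 and Acsl4. Of the 18 sterol genes, 8 were highest in AT2 cells in Pclaf WT and 7 in Pclaf KO, and the others were highest in transitional cells, alveolar macrophages, fibroblasts and further classes. In Pclaf WT those highest in transitional cells were Srebf2, Fdft1 and Msmo1. Without the top barcode of each they lay at 113, 66.0 and 84.5 CPM there. The next classes lay higher, at 171 (dendritic), 66.5 (Lcn2-low AT2) and 93.8 (middle AT2), so these 3 ranks rested on 1 barcode each.

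**Figure D1:**
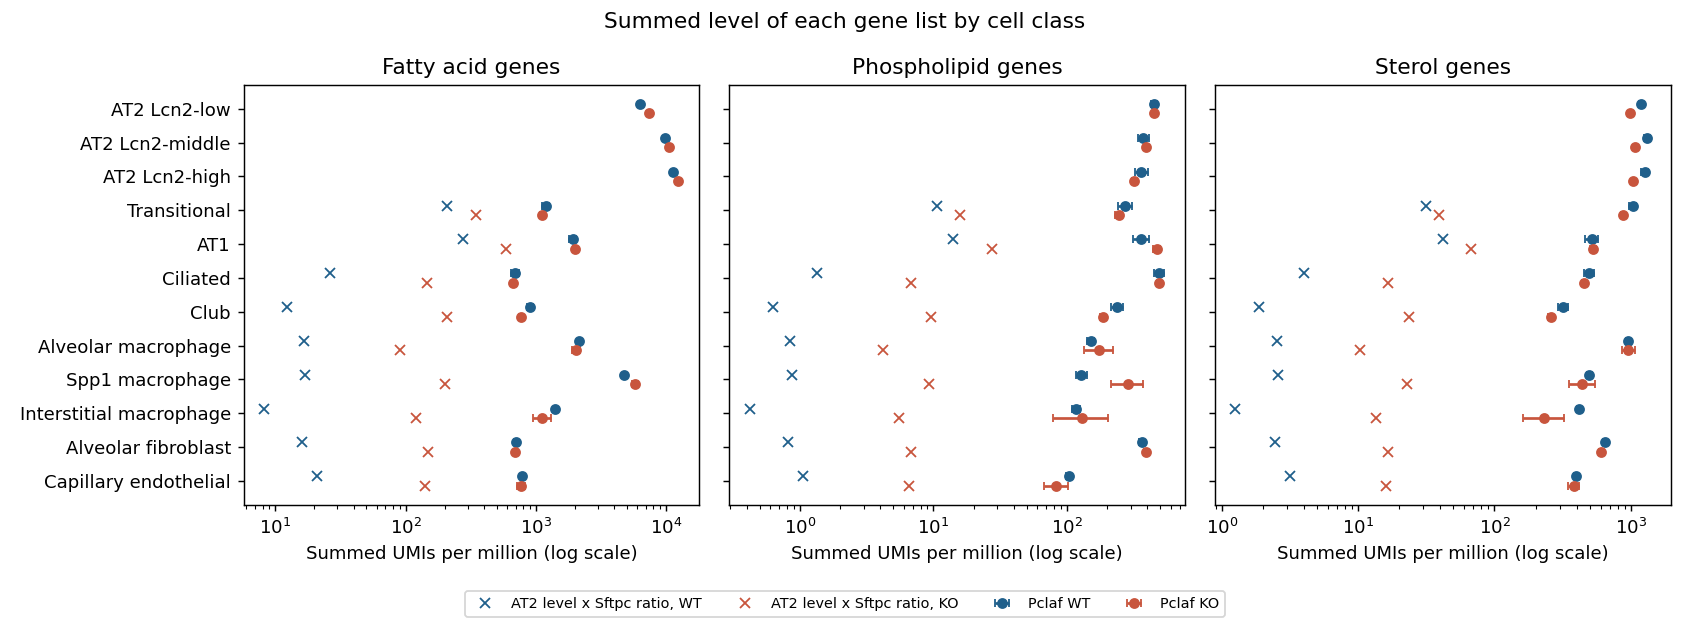
Summed level of the fatty acid, phospholipid and sterol genes (x axis, CPM on a log scale) in 12 cell classes (y axis) of Pclaf WT (blue) and Pclaf KO (red), with bars for the 95% Poisson interval. Crosses, drawn outside AT2, give the AT2 level multiplied by the class's ratio of Sftpc to AT2 cells; the fatty acid genes stand out in the AT2 classes, up to 12388 CPM, and every class outside AT2 lies above its cross.

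Scd1, the stearoyl-CoA desaturase that makes oleate and palmitoleate, made up 47.0% of the fatty acid UMIs of Lcn2-low AT2 cells in Pclaf WT and 47.8% in Pclaf KO, at 2950 and 3529 CPM. Fabp5, a small cytosolic fatty acid carrier, followed at 611 and 865, and Elovl1, which elongates saturated chains, at 547 and 741. Thinned to 1000 UMIs per cell, 79.2% (75.1 to 82.8) of Lcn2-low AT2 cells held a Scd1 UMI in Pclaf WT and 85.5% (84.4 to 86.6) in Pclaf KO, against 2.47% and 8.23% of capillary endothelial cells. Before thinning these shares were 95.8%, 98.5%, 6.41% and 19.2%, at median depths of 5122, 6596, 2483 and 2500 UMIs.
Of the phospholipid genes the 3 highest were Chka (choline kinase) at 256 and 248, Chpt1 (cholinephosphotransferase) at 84.4 and 87.1, and Pcyt1a (the rate-limiting enzyme of the choline route to phosphatidylcholine) at 69.3 and 60.8 CPM. Of the sterol genes Hmgcs1 (HMG-CoA synthase) was highest, at 154 and 131. Idi1, which isomerises isopentenyl diphosphate, followed at 144 and 105. Insig1, which holds the Srebf proteins back in the endoplasmic reticulum when sterol is plentiful, lay at 132 and 95.9 and Srebf2 at 120 and 113. No sterol gene came within a factor of 10 of Scd1.

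Lcn2-high AT2 cells carried more RNA of the fatty acid genes than Lcn2-low cells, and about the same amount of sterol gene RNA. The fatty acid sum went from 6279 through 9742 in the middle cells to 11341 (11116 to 11570) in Lcn2-high cells of Pclaf WT, and from 7384 through 10593 to 12388 (12307 to 12469) in Pclaf KO. Without Scd1 the sum still went from 3328 to 5013 and from 3855 to 5560. Counted per cell after thinning, the median was 5 fatty acid UMIs per 1000 in Lcn2-low cells, 9 in middle cells and 11 in Lcn2-high cells of Pclaf WT, and 6, 9 and 12 in Pclaf KO.
The sterol sum was 1190, 1313 and 1266 (1192 to 1344) in Pclaf WT and 985, 1067 and 1046 (1022 to 1070) in Pclaf KO. The phospholipid sum went from 450 to 361 (322 to 404) and from 450 to 321 (308 to 334).

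The difference was carried above all by the main desaturase, 1 elongase, the synthase and a carrier. Scd1 lay at 2950 in Lcn2-low and 6328 in Lcn2-high cells of Pclaf WT, a log2 ratio of 1.10 (1.05 to 1.15). In Pclaf KO it lay at 3529 and 6828, a log2 ratio of 0.95 (0.94 to 0.97). It thus had the highest level of all members in both classes, and a similar ratio in both libraries.
Elovl1 went from 547 to 1109 CPM in Pclaf WT (log2 ratio 1.02, 0.90 to 1.14) and from 741 to 1464 in Pclaf KO (0.98, 0.95 to 1.02). Fasn, the fatty acid synthase, went from 470 to 868 (0.89, 0.75 to 1.02) and from 471 to 763 (0.70, 0.65 to 0.74). Fabp5 went from 611 to 963 (0.66, 0.53 to 0.78) and from 865 to 1362 (0.66, 0.62 to 0.69).
Among the supply genes, Me1, the malic enzyme that yields NADPH, went from 137 to 256 (0.90, 0.65 to 1.15) in Pclaf WT and from 158 to 210 (0.42, 0.33 to 0.50) in Pclaf KO. Acly, which makes cytosolic acetyl-CoA from citrate, differed by a log2 ratio of 0.29 and 0.13, and Acsl4, which activates long unsaturated chains, by 0.37 in both libraries. These 7 genes had intervals above 0 in both libraries, out of 11 fatty acid genes that passed the count limit in both. Of all 7533 genes that passed in both, 5.11% had intervals above 0 in both libraries and 11.7% had intervals below 0.

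The remaining fatty acid genes did not have intervals above 0 in both libraries. Of these, Scd2 and Elovl5 lay above 0 within Xist-only and within Y-only cells of each library. Acaca, the carboxylase ahead of Fasn, lay at 208 and 209 in Pclaf WT and went from 225 to 190 in Pclaf KO (log2 ratio -0.24, -0.33 to -0.16). Srebf1 lay at 73.1 and 64.5 in Pclaf WT and at 73.7 and 70.1 in Pclaf KO, and both intervals of its ratio held 0. Scd2, the second desaturase, had ratios of 0.13 and -0.04, also with intervals that held 0.
The elongase Elovl5 had ratios of 0.35 (0.05 to 0.65) and 0.09 (-0.03 to 0.20). Elovl6, a further elongase, had 2 UMIs in Lcn2-high cells of Pclaf WT and 1 in those of Pclaf KO, and stayed below the count limit. Acss2, which makes acetyl-CoA from acetate, passed the limit in Pclaf KO only, with a ratio of -0.16 (-0.60 to 0.25).

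At the size limit, 2 of 11 fatty acid genes (Scd1 and Elovl1) were higher in Lcn2-high cells of Pclaf WT, where 0.879% of 7619 genes were. None of 12 passed it in Pclaf KO, where 1.07% of 12589 genes did. No member that passed the count limit was lower by that size, against 4.90% and 8.05% of genes. The median log2 ratio of the fatty acid genes was 0.37 in Pclaf WT and 0.25 in Pclaf KO, that of the sterol genes 0.12 and 0.10, and that of all genes -0.12 and -0.15. The sterol medians took the other sign in 3 of 19 alternative settings in each library.

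No phospholipid gene reached the size limit, and Chka was the one with intervals below 0 in both libraries. Chka went from 256 to 175 CPM in Pclaf WT (log2 ratio -0.55, -0.82 to -0.29) and from 248 to 152 in Pclaf KO (-0.70, -0.80 to -0.61). Gpam, which adds the first acyl chain to glycerol phosphate, had ratios of -0.57 (-1.29 to 0.09) and -0.36 (-0.54 to -0.18). Pcyt1a had -0.13 and -0.45, and only the second interval lay below 0. Chpt1 had 0.19 and -0.09, with intervals that held 0. The median over the 4 was -0.34 and -0.40, and within Xist-only cells of Pclaf WT it was 0.12.

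No sterol gene reached the size limit in either library. Insig1, with intervals below 0 in both libraries, went from 132 to 84.5 in Pclaf WT (-0.65, -1.03 to -0.28) and from 95.9 to 72.2 in Pclaf KO (-0.41, -0.55 to -0.27). Srebf2 had ratios of -0.01 and -0.47. Fdps, the farnesyl diphosphate synthase, went from 67.3 to 120 (0.83, 0.46 to 1.19) and from 87.5 to 131 (0.58, 0.47 to 0.69), and Pmvk (phosphomevalonate kinase) from 125 to 167 (0.42) and from 61.7 to 86.3 (0.48).
Fdps and Pmvk were the sterol genes with intervals above 0 in both libraries, out of 16 that passed the count limit in both, beside 5.11% of all genes. Mvk and Dhcr7 passed it in Pclaf KO only, with ratios of 0.47 and 0.32. Hmgcs1, the entry to the branch, had 0.06 (-0.23 to 0.35) and 0.12 (0.01 to 0.22), and the enzymes that make and convert squalene, Fdft1, Sqle, Lss, Cyp51, Msmo1, Nsdhl and Sc5d lay between -0.21 and 0.57 in Pclaf WT and between -0.14 and 0.25 in Pclaf KO. Acat2, Mvd, Idi1 and Stard4 lay between -0.24 and 0.18 in Pclaf WT and between -0.13 and 0.33 in Pclaf KO.

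**Figure D2:**
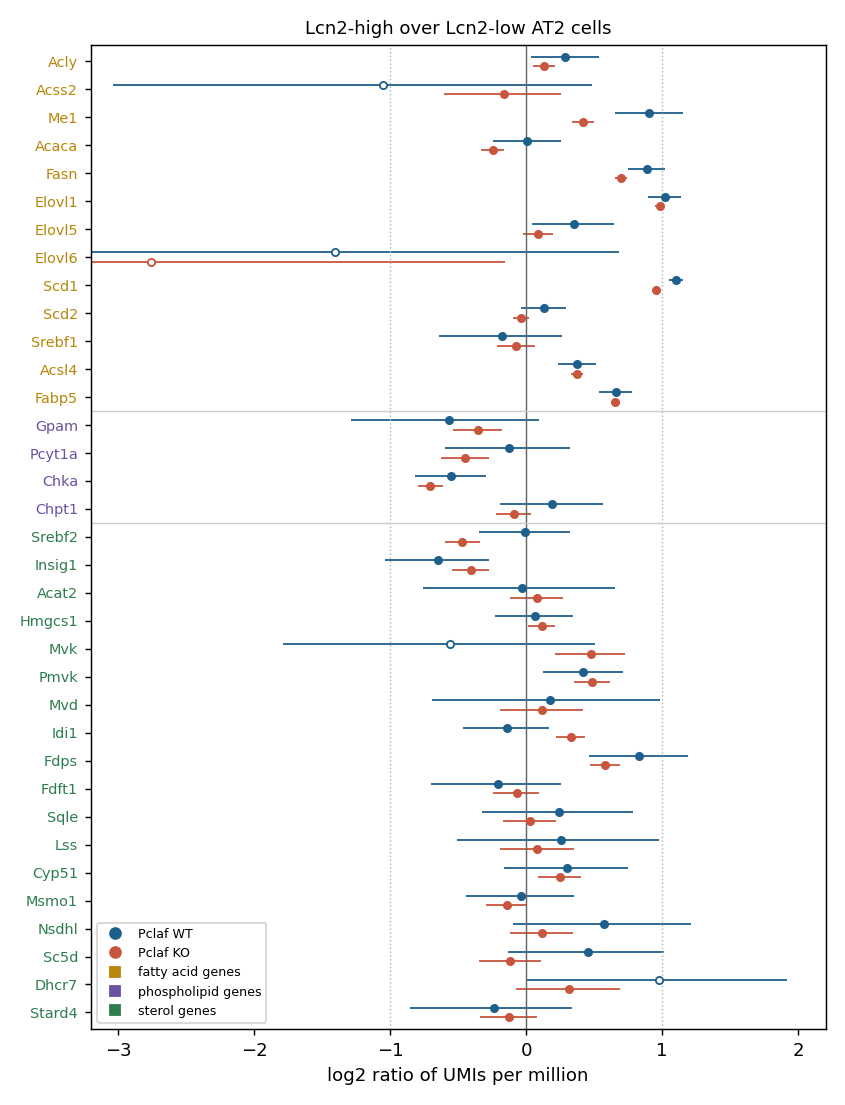
Log2 ratio of CPM in Lcn2-high over Lcn2-low AT2 cells (x axis) for each of the 35 members (y axis), in Pclaf WT (blue) and Pclaf KO (red), with 95% Poisson intervals cut at the axis limits; open points had under 50 UMIs. Scd1, Elovl1, Fasn, Fabp5 and Me1 lie to the right in both libraries, Chka and Insig1 to the left, and most sterol genes near 0.

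Other measures moved with Lcn2 in the same cells. From Lcn2-low to Lcn2-high cells the 9 AT2 markers went from 133768 to 167656 CPM in Pclaf WT and from 181434 to 221111 in Pclaf KO. Retained nuclear RNA went from 16056 to 13366 and from 17658 to 11359, and the median depth from 5122 to 6742 and from 6596 to 9567 UMIs. In Pclaf WT the capillary markers went from 703 to 278 and Ptprc, a leukocyte gene, went from 124 to 79.8 CPM, against 5.79 and 3.06 for Ptprc in Pclaf KO. The part of these in the fatty acid ratios was not tested.

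Most fatty acid genes had the same sign when the cells were split by Xist and the Y-linked genes. Of the 11 that passed the count limit in both libraries, 9 lay above 0 in all 4 subsets (Xist-only and Y-only cells of each library), the exceptions being Acaca and Srebf1. In Pclaf KO, Scd1 had a log2 ratio of 0.93 within 657 Lcn2-high and 1987 Lcn2-low Xist-only cells and of 0.76 within 26 and 1307 Y-only cells. In Pclaf WT it had 0.85 within 19 and 128 Xist-only cells and 1.19 within 61 and 165 Y-only cells.
Elovl1 lay between 0.84 and 1.28 in the 4 subsets and Fasn between 0.56 and 0.95. Fabp5 had ratios of 1.33 and 0.87 in Xist-only cells of Pclaf WT and Pclaf KO, and of 0.42 and 0.33 in Y-only cells. Of the 16 sterol genes 4 lay above 0 in all subsets (Fdps, Mvd, Pmvk and Sqle) and 2 below (Fdft1 and Insig1). How many of all genes had the same sign in all 4 subsets was not counted. Chka was above 0 in Xist-only cells of Pclaf WT (0.16) and below 0 in the other 3 subsets.

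**Figure D3:**
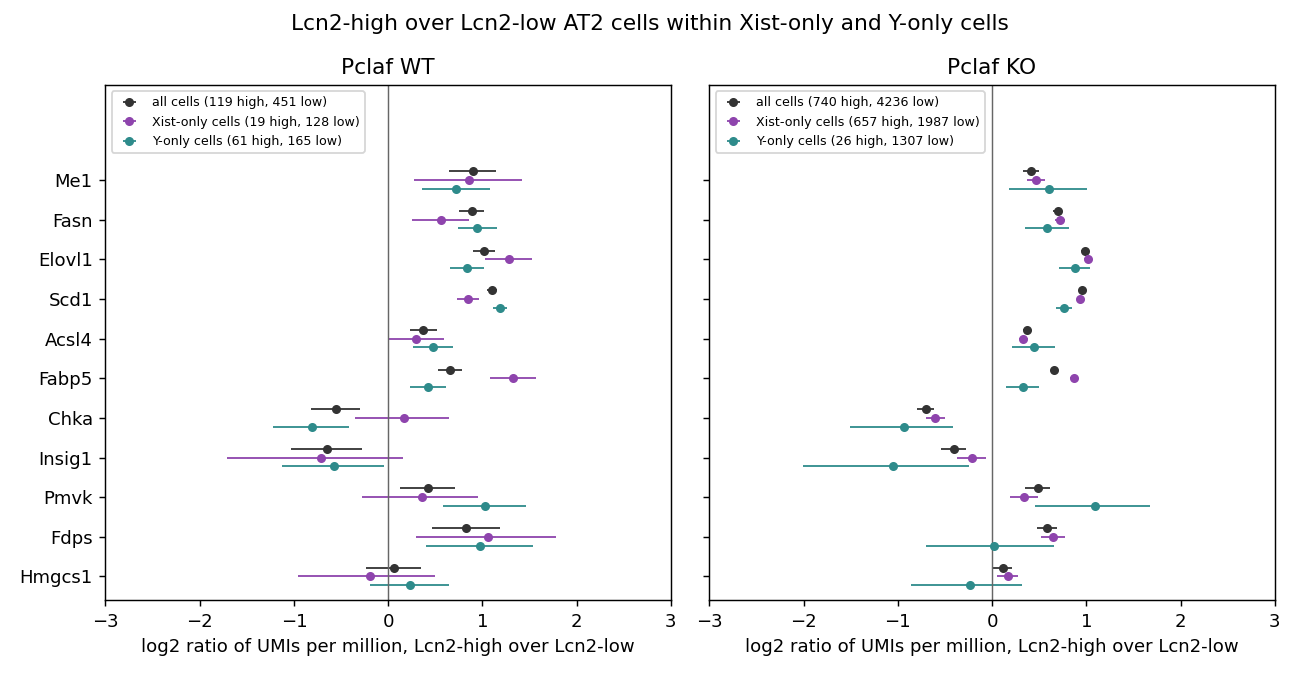
Log2 ratio of CPM in Lcn2-high over Lcn2-low AT2 cells (x axis) for 11 members (y axis), in Pclaf WT (left) and Pclaf KO (right), over all cells (black), Xist-only cells (purple) and Y-only cells (green), with 95% Poisson intervals. Me1, Fasn, Elovl1, Scd1, Acsl4 and Fabp5 lie right of 0 in every subset; the Y-only set of Pclaf KO rests on 26 Lcn2-high cells.

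Transitional cells held much less fatty acid gene RNA than AT2 cells, while the sterol sums were closer. The sterol sum was 1036 CPM in Pclaf WT, or 913 (854 to 975) without the barcode that held 121 of its 1015 UMIs as Srebf2, against 1190 in Lcn2-low AT2 cells, and 873 against 985 in Pclaf KO. The fatty acid sum was 1187 (1120 to 1257) CPM in Pclaf WT and 1106 (1076 to 1137) in Pclaf KO, against 6279 and 7384 in Lcn2-low AT2 cells. Transitional cells also held Sftpc, at 2.56% and 3.84% of its level over all AT2 cells. Fatty acid genes at that same ratio would come to 208 and 347 CPM.
Fasn went from 470 to 48.0 in Pclaf WT (log2 ratio -3.29, -3.75 to -2.87) and from 471 to 41.5 in Pclaf KO (-3.51, -3.72 to -3.30). Scd1 went from 2950 to 364 (-3.02, -3.17 to -2.86) and from 3529 to 279 (-3.66, -3.74 to -3.58). Elovl1 went from 547 to 73.5 (-2.90) and from 741 to 78.7 (-3.23).
Acaca had ratios of -2.42 and -2.89, Acsl4 of -2.26 and -2.27, Fabp5 of -1.86 and -2.35, and Scd2 of -1.81 and -1.80. Srebf1 went from 73.1 to 22.5 (-1.70) and from 73.7 to 25.4 (-1.54), and Acly from 183 to 77.6 (-1.24) and from 201 to 56.8 (-1.83). Elovl5 had -1.29 and -0.94, and Me1 lay nearest its AT2 level, at -0.45 (-0.79 to -0.13) and -0.42 (-0.55 to -0.29). Below the count limit, Elovl6 had 5 and 17 UMIs in transitional cells, and Acss2 5 UMIs in Pclaf WT. In Pclaf KO Acss2 passed, with -0.97.

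Of the 11 fatty acid genes that passed the count limit in both libraries, 9 were lower by at least 1 log2 unit in both. In Pclaf WT alone the count was 10 of 11, where 12.5% of 8114 genes were lower, and in Pclaf KO 9 of 12, where 10.2% of 12892 genes were. No member was higher by that size in either library, against 16.9% and 27.0% of genes. The medians were -1.86 and -2.05 for the fatty acid genes, -0.72 and -0.88 for the phospholipid genes and -0.30 and -0.31 for the sterol genes, beside 0.21 and 0.43 for all genes.

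Among the phospholipid genes Gpam was scarce, with 6 UMIs in transitional cells of Pclaf WT and 15 in those of Pclaf KO (log2 ratios -2.71, -4.19 to -1.54, and -4.07, -4.91 to -3.34). Chka lay closer to its AT2 level, at 166 and 159 CPM (-0.62 and -0.64). Pcyt1a had -0.38 and -0.51 and Chpt1 -0.82 and -1.11.

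The sterol genes went both ways. Insig1 was the sterol gene lower by over 1 log2 unit in both libraries, from 132 to 57.2 (-1.21, -1.65 to -0.80) and from 95.9 to 39.6 (-1.28, -1.50 to -1.06). The mevalonate enzyme Hmgcs1 (-0.62 and -0.49) was below its AT2 level in both libraries. Idi1 was below its AT2 level in Pclaf WT (-0.70), but its interval in Pclaf KO held 0 (-0.13). Fdps (-0.07 and 0.14) and Mvk (0.07 and -0.24) had intervals that held 0. Pmvk had -1.44 in Pclaf WT and -0.01 in Pclaf KO, Mvd -1.02 and -0.39, and Acat2 -0.43 and -1.26.
Several enzymes from squalene onwards lay at or above their AT2 level. Sc5d, the lathosterol oxidase, went from 33.5 to 53.1 (0.67, 0.14 to 1.18) and from 28.9 to 50.3 (0.80, 0.59 to 1.01). Msmo1, a sterol methyl oxidase, went from 87.9 to 107 (0.29, -0.06 to 0.63) and from 68.6 to 115 (0.75, 0.61 to 0.88). Fdft1, the squalene synthase, went from 66.5 to 72.5 (0.12) and from 52.2 to 77.6 (0.57). Sqle had 0.50 and 0.19 and Cyp51 -0.17 and 0.28. Without the top barcode of each gene in each class, Pclaf WT had 0.46 (-0.10 to 1.01) for Sc5d, -0.03 for Msmo1 and 0.02 for Fdft1. Pclaf KO then had 0.73 (0.51 to 0.95), 0.70 and 0.49.
Others of the same stretch were lower. Nsdhl had -1.42 (-2.61 to -0.40) and -0.96 (-1.37 to -0.58), while Lss had -0.30 and -1.10. Dhcr7, with 6 and 12 UMIs in transitional cells, had -1.70 in Pclaf KO and was under the count limit in Pclaf WT. Stard4, which carries sterol between membranes, had -0.80 and -1.13.

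Srebf2 had ratios of opposite sign in the libraries with both intervals clear of 0, from 120 to 236 CPM in Pclaf WT (0.97, 0.72 to 1.22) and from 113 to 61.3 in Pclaf KO (-0.89, -1.07 to -0.71). In Pclaf WT, 121 of its 231 UMIs came from 1 barcode, which had 3361 UMIs in all. Without that barcode, and without the highest Lcn2-low barcode, Srebf2 lay at 113 CPM and its ratio was -0.08 (-0.41 to 0.24). Leaving out the top barcode moved Gpam from -2.71 to -3.22 in the same class and no other of the 32 members by over 0.5. A barcode of 9477 UMIs was the top one for Msmo1 (23 of 105 UMIs), Hmgcs1 (17 of 98), Sc5d (8 of 52), Fdft1 (7 of 71) and Cyp51 (5 of 48). It was kept in the sterol sum of 913 CPM.

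AT1 cells also had little fatty acid gene RNA, but a different desaturase was the higher one. The fatty acid sum was 1915 (1810 to 2024) in Pclaf WT and 1990 (1933 to 2049) in Pclaf KO, with 276 and 592 CPM at the Sftpc ratios of 3.40% and 6.55%. Scd2 lay at 435 in Lcn2-low AT2 and 1049 in AT1 cells of Pclaf WT (log2 ratio 1.27, 1.13 to 1.41), and at 442 and 1055 in Pclaf KO (1.26, 1.19 to 1.32). Scd1 went the other way, from 2950 to 214 (-3.78, -4.03 to -3.54) and from 3529 to 292 (-3.60, -3.71 to -3.48).
The order of the desaturases was thus reversed, with Scd2 the higher of the pair in AT1 cells of both libraries. After thinning, 55.2% (47.5 to 62.7) of AT1 cells held a Scd2 UMI in Pclaf WT and 53.7% (48.8 to 58.6) in Pclaf KO, against 7.47% and 6.10% of capillary endothelial cells and 9.15% and 11.4% of transitional cells. Unthinned, AT1 cells had 75.9% and 82.7%, capillary cells 19.5% and 18.6%, and transitional cells 31.1% and 36.8%.
Scd1 and Scd2 are close paralogs, and reads that match both are uncertain, as Cell Ranger counts only reads that map to 1 gene.

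Elovl5, which elongates polyunsaturated chains, also lay near its AT2 level, at 139 and 136 CPM in AT1 cells (0.18, -0.17 to 0.52, and 0.35, 0.18 to 0.52). Fasn lay at 54.0 and 56.7 (-3.12 and -3.05), Acsl4 at 77.1 and 92.8 (-2.77 and -2.60), Elovl1 at 87.9 and 107 (-2.64 and -2.79) and Acaca at 46.3 and 42.2 (-2.17 and -2.42). Acly had -1.89 and -2.06, Srebf1 -1.76 and -1.24, and Me1 -2.01 and -1.10. Fabp5 lay at 45.7 in Pclaf KO (-4.24, -4.53 to -3.96) and at 131 in Pclaf WT (-2.22, -2.55 to -1.91). The difference between the libraries was not tested. Acss2 had 6 and 22 UMIs in AT1 cells and Elovl6 1 and 0.

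In all, 9 of the 11 fatty acid genes that passed the count limit in both libraries were lower by at least 1 log2 unit in both and 1, Scd2, was higher. In each library singly 9 were lower, out of 11 in Pclaf WT and 12 in Pclaf KO, where 8.98% of 7732 and 12.2% of 12501 genes were lower. Higher were 1 of 11 and 1 of 12, against 12.0% and 18.5% of genes. The median was -2.17 and -2.24.

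The phospholipid genes of AT1 cells diverged. Chpt1 went from 84.4 to 159 CPM in Pclaf WT (0.91, 0.56 to 1.26) and from 87.1 to 229 in Pclaf KO (1.40, 1.26 to 1.53). Gpam had 1 UMI and 11 UMIs in all AT1 cells of the libraries (-4.70, -10.02 to -2.19, and -3.49, -4.49 to -2.64). Pcyt1a had -0.03 and -0.22 with intervals that held 0, and Chka -0.97 and -0.43.

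Most sterol genes lay below their AT2 level in AT1 cells. Their sum was 517 (463 to 575) and 529 (500 to 560) CPM, and the medians were -1.15 and -0.91, beside 0.21 and 0.31 for all genes. Members lower by at least 1 log2 unit numbered 10 of 17 in Pclaf WT, beside 8.98% of all genes, and 8 of 18 in Pclaf KO, beside 12.2%. Of these members, 6 were so in both libraries.
Those 6 were Insig1 (-2.42 and -1.89), Acat2, the cytosolic thiolase (-1.90 and -1.90), Idi1 (-2.02 and -1.58), Sqle, the squalene epoxidase (-1.23 and -1.26), Lss, the lanosterol synthase (-2.29 and -1.69), and Stard4 (-2.26 and -1.85). Idi1 for instance went from 144 to 35.5 and from 105 to 35.2 CPM. In Pclaf WT, Acat2 and Stard4 rested on 5 and 6 UMIs in AT1 cells and moved by over 0.5 without their top barcode.
Mvk, the mevalonate kinase (0.25 and 0.51), and Sc5d (-0.05 and 0.45) were the sterol genes near or above their AT2 level in both libraries.

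Xist-only and Y-only cells were also read singly. The share of all genes with the same sign in all 4 subsets was not counted. All 11 fatty acid genes lay below 0 in the 4 subsets for transitional cells. In AT1 cells 9 lay below 0 and Scd2 and Elovl5 above 0 in the 4 subsets. Of the 17 sterol genes, 7 lay below 0 and 2 above in all subsets for transitional cells, and 9 below and 0 above for AT1 cells. Acat2, Lss and Stard4, lower in AT1 cells of both libraries over all cells, are not among these 9, since each had 0 UMIs in 1 of the subsets of Pclaf WT AT1 cells. The phospholipid median of AT1 cells in Pclaf WT was 0.015 within Xist-only and 0.27 within Y-only cells.

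**Figure D4:**
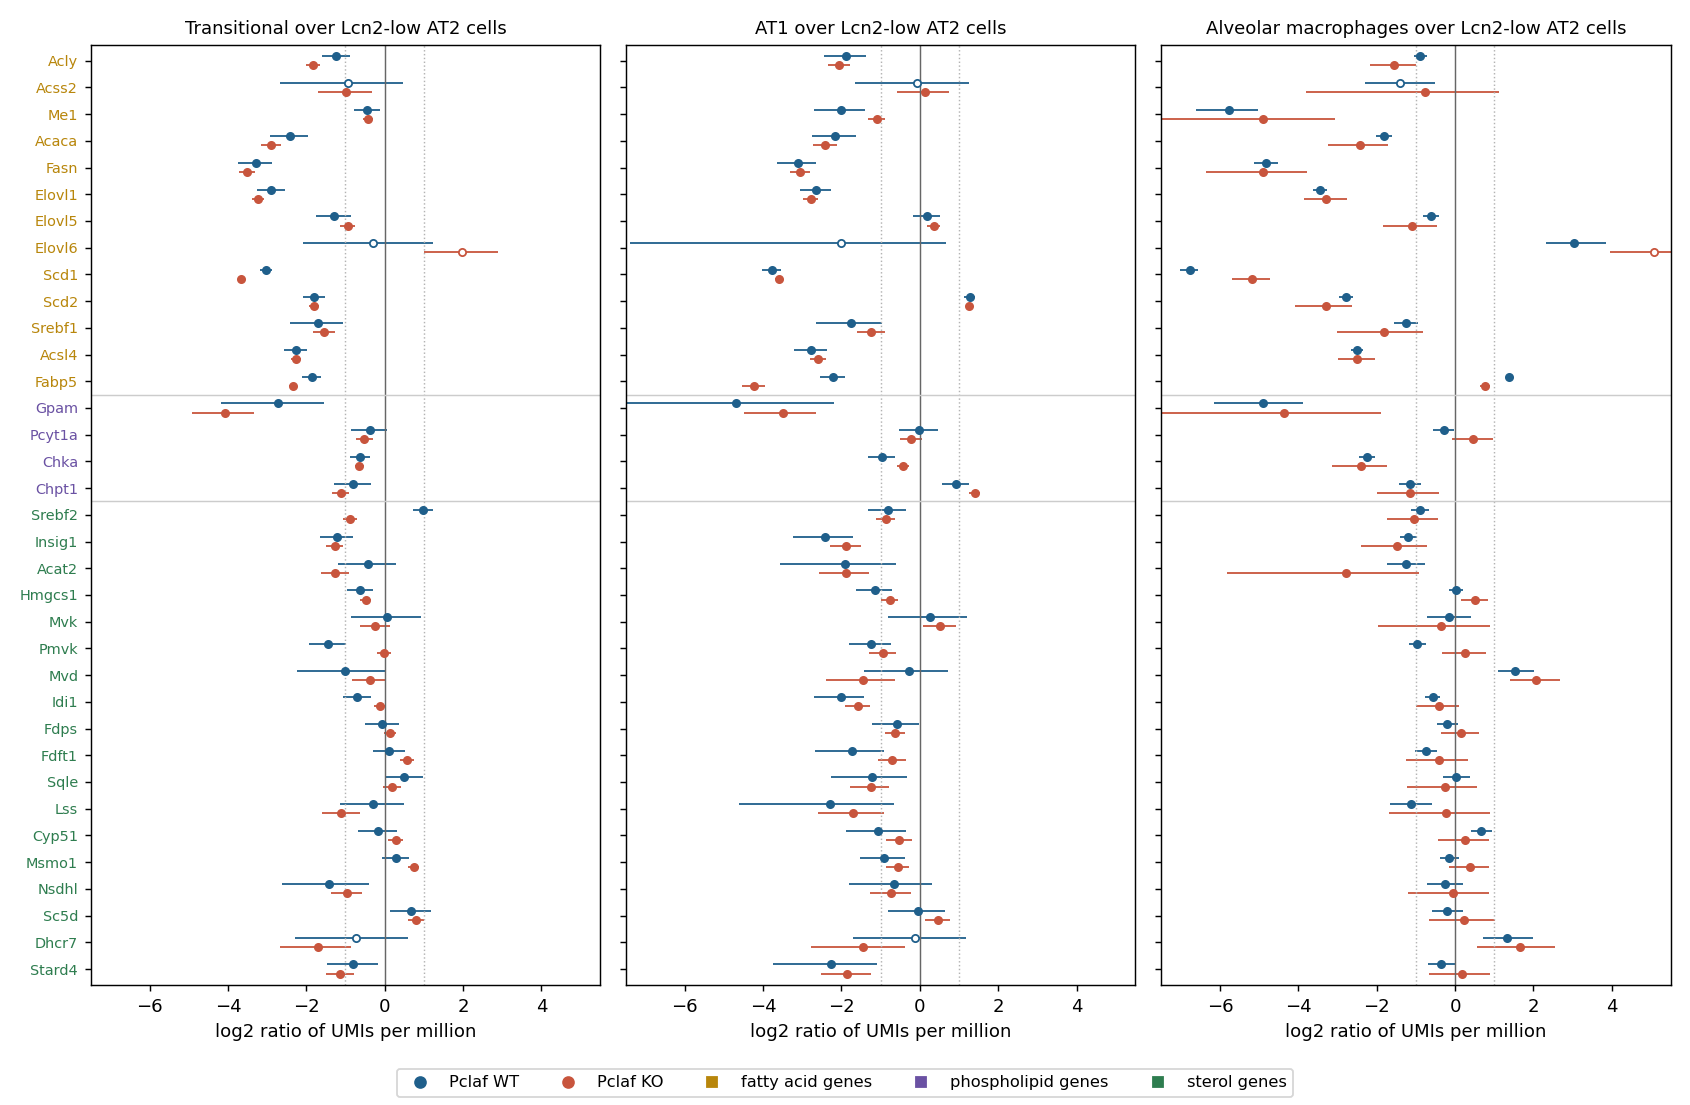
Log2 ratio of CPM (x axis) for each of the 35 members (y axis) in transitional cells (left), AT1 cells (middle) and alveolar macrophages (right) over Lcn2-low AT2 cells, in Pclaf WT (blue) and Pclaf KO (red), with 95% Poisson intervals cut at the axis limits and open points for members under 50 UMIs. Most fatty acid genes lie to the left, Me1 in transitional and Elovl5 in AT1 cells lie near 0, and Scd2 in AT1 cells and Fabp5 and Elovl6 in macrophages lie to the right; the Srebf2 point of Pclaf WT transitional cells rests on 1 barcode.

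Alveolar macrophages, which take up and break down surfactant, held more Fabp5 than Lcn2-low AT2 cells and far less Fasn and Scd1. Their sterol sum was 947 (923 to 972) CPM against 1190 (1148 to 1233) in Lcn2-low AT2 cells of Pclaf WT. In Pclaf KO it was 962 (866 to 1066) against 985 (973 to 996). In Pclaf WT their fatty acid sum was 2162 (2125 to 2200) CPM, 73.3% of it Fabp5. Fabp5 lay at 1586 against 611 in Lcn2-low AT2 cells (log2 ratio 1.38, 1.30 to 1.45) in Pclaf WT, and at 1473 against 865 (0.77, 0.64 to 0.89) in Pclaf KO. Elovl6, which takes palmitate to stearate, lay at 51.1 against 6.23 in Pclaf WT (3.04, 2.32 to 3.86). In Pclaf KO, where it did not pass the count limit, it had 12 UMIs in 43 alveolar macrophages, 31.6 CPM, against 0.94. Among the ranked classes Elovl6 was highest in natural killer cells of Pclaf WT, at 83.8 CPM, and in basal cells of Pclaf KO, at 37.4.
Fasn went from 470 to 16.6 in Pclaf WT (-4.82, -5.13 to -4.53) and from 471 to 15.8 in Pclaf KO (-4.90, -6.35 to -3.78). Scd1 went from 2950 to 27.0 (-6.77, -7.01 to -6.55) and from 3529 to 97.3 (-5.18, -5.69 to -4.72). Me1 had 15 UMIs and 2 UMIs (-5.77 and -4.90).
Elovl1 (-3.44 and -3.28), Scd2 (-2.78 and -3.30), Acsl4 (-2.50 and -2.49), Acaca (-1.81 and -2.42) and Srebf1 (-1.25 and -1.81) were lower in both libraries too. Acly lay nearer its AT2 level, at 99.3 CPM in Pclaf WT (-0.88, -1.06 to -0.70) and 68.4 in Pclaf KO (-1.56), and Elovl5 had -0.62 and -1.10. Fatty acid genes at the Sftpc ratios of 0.20% and 1.01% would come to 16.5 and 91.1 fatty acid CPM.

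By count, 8 of 12 fatty acid genes were lower by at least 1 log2 unit in Pclaf WT, where 19.5% of 10213 genes were, and 10 of 12 in Pclaf KO, where 19.8% of 12401 genes were. Higher were 2 of 12 and 0 of 12, against 19.3% and 27.4% of genes. The phospholipid genes Gpam (-4.90 and -4.37), Chka (-2.24 and -2.39) and Chpt1 (-1.14 and -1.14) were lower in both libraries, and Pcyt1a had -0.29 and 0.47.

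The sterol median was -0.23 in Pclaf WT and 0.04 in Pclaf KO. Of the 18 sterol genes, 2 were higher and 2 lower by at least 1 log2 unit in both libraries. Of all genes, 19.3% were higher and 19.5% lower by that size in Pclaf WT alone. In Pclaf KO alone 27.4% were higher and 19.8% lower. Mvd, the decarboxylase that ends the mevalonate steps, was higher, at 54.3 against 18.7 CPM (1.54, 1.10 to 2.01) in Pclaf WT and 60.5 against 14.3 (2.08, 1.40 to 2.68) in Pclaf KO. So was Dhcr7, the reductase that ends cholesterol synthesis, at 25.5 against 10.1 (1.33, 0.73 to 1.99) and 26.3 against 8.37 (1.65, 0.57 to 2.55).
Insig1, at 58.0 and 34.2 CPM (-1.19 and -1.49), and Acat2 (-1.25 and -2.78) were lower. Hmgcs1 had 0.02 (-0.15 to 0.19) and 0.51 (0.15 to 0.85), Sqle 0.03 and -0.26, and Cyp51, the lanosterol demethylase, 0.67 and 0.25. Of the 71 Hmgcs1 UMIs in Pclaf KO, 16 came from 1 barcode. Without the top barcode of each class that ratio was 0.19 (-0.22 to 0.57). In Pclaf KO, 7 of the 34 members that passed moved by over 0.5 without 1 top barcode, Insig1, Acat2 and Me1 among them.

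The macrophage types of Pclaf WT differed in the sterol genes. Their sum was 947 in 828 alveolar, 497 (474 to 519) in 450 Spp1 and 418 (403 to 434) in 1273 interstitial macrophages. Against alveolar macrophages, 7 of 18 sterol genes were lower by at least 1 log2 unit in Spp1 macrophages, where 7.58% of 9764 genes were, and 13 of 18 in interstitial macrophages, where 7.56% of 10541 genes were. The medians were -0.93 and -1.25, while the median over all genes was -0.17 for Spp1 macrophages and near 0 for interstitial macrophages.
Hmgcs1 lay at 156 in alveolar, 55.5 in Spp1 and 53.2 in interstitial macrophages, and Idi1 at 96.9, 37.5 and 28.0 CPM. Nearest to their level in alveolar macrophages were Mvk, with -0.12 and -0.47, and Srebf2, with -0.33 and -0.04.
Among the fatty acid genes, 2 of 12 were higher in Spp1 macrophages, where 3.98% of genes were. They were Acss2, at 7.59 against 3.69 CPM (1.04, 0.19 to 1.91), and Fabp5, at 4386 against 1586 CPM (1.47, 1.43 to 1.50). Acss2 rested on 29 and 22 UMIs, close to the count limit. Lower were 3, Elovl5, Elovl6 and Scd1, and Elovl6 went from 51.1 to 7.59 (-2.75, -3.35 to -2.20). In interstitial macrophages 0 of 11 were higher, against 9.08% of genes, and 2 were lower, Elovl6 and Scd2. The intervals cover counting error in 1 library.

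The genotypes differed little in Lcn2-low AT2 cells. Pclaf KO over Pclaf WT, the median log2 ratio was 0.11 for the fatty acid genes (-0.030 without called doublets), -0.25 for the sterol genes, and -0.15 for all 12645 genes with 50 UMIs, while the phospholipid median was -0.0027. Pmvk was the member lower by at least 1 log2 unit, at 125 in Pclaf WT and 61.7 in Pclaf KO (-1.01, -1.19 to -0.84), against 8.66% of genes. No member was higher by that size, against 3.25% of genes.
Pmvk had a ratio of -0.97 without its top barcode in each library, -1.17 within Xist-only cells and -0.90 within Y-only cells. Of the 18 sterol genes, 13 lay below 0 in both subsets, where 43.4% of all genes did, and 1, Fdps, above 0, where 15.3% did. Insig1 (-0.46, -0.63 to -0.30) and Idi1 (-0.45, -0.61 to -0.29) followed Pmvk. Among the fatty acid genes Fabp5 (0.50, 0.43 to 0.57), Elovl1 (0.44, 0.36 to 0.52) and Scd1 (0.26, 0.22 to 0.29) were the highest of the members with large counts. Elovl6 had 16 UMIs in Pclaf WT and 28 in Pclaf KO, 6.23 and 0.94 CPM. In the same cells Ptprc lay at 124 CPM in Pclaf WT and 5.79 in Pclaf KO and the alveolar macrophage markers at 363 and 44.8, and the part of such RNA in the ratios was not tested.

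Other genes of the pathways, from lists made by pathway, followed the members in part. Of 25 further fatty acid genes, 12 passed the count limit for Lcn2-high over Lcn2-low cells in Pclaf WT and 21 in Pclaf KO, and none of them differed by 1 log2 unit in either library (medians 0.10 and 0.04), beside 0.879% and 1.07% of all genes higher and 4.90% and 8.05% lower by that size. Of 27 further phospholipid genes, 1 of 19 was higher in Pclaf WT, Agpat2, which adds the second acyl chain, and 1 of 26 was lower in Pclaf KO, Gpat3. Of 21 further sterol genes in the matrices, Abcg1, a sterol exporter, was lower in both libraries and Lbr in Pclaf WT, of 18 and 20 that passed.
In transitional cells, 5 of 14 further fatty acid genes were lower in Pclaf WT, beside 12.5% of all genes, and 7 of 21 in Pclaf KO, beside 10.2%, with Fads1, Hacd3, Acsl5, Mid1ip1 and Acot7 among them in both, and 4 were higher in each, with Elovl7, Fads3 and Fabp3 in both, beside 16.9% and 27.0% of all genes. Among the 27 further phospholipid genes Lpcat1, the lysophosphatidylcholine acyltransferase of surfactant, and Pcyt2 were lower in transitional and AT1 cells of both libraries. Of all genes, 12.5% and 10.2% were lower in transitional cells of Pclaf WT and Pclaf KO, and 8.98% and 12.2% in AT1 cells. How many of the other phospholipid genes were lower or higher there is not given. Of 9 genes of lipid storage and uptake, 7 of 9 were higher in alveolar macrophages of Pclaf WT and 6 of 8 in Pclaf KO (medians 3.15 and 4.20), beside 19.3% and 27.4% of all genes, among them Plin2, Dgat1, Dgat2, Lpl, Pparg and Fabp1, while Cd36 and Apoe were lower.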

How the data were processed

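The deposited matrices hold UMI counts of genes by barcode, made by the authors from 10x Genomics 3' libraries of sorted lung cells. The submitters' processing notes name Cell Ranger 3.1.0, STAR and GRCm38 (mm10), while the matrix headers name Cell Ranger 5.0.0. Barcodes with 200 to 5000 genes and at most 20% mitochondrial UMIs were kept (30187 in Pclaf WT, 15637 in Pclaf KO). Those with at least 1000 UMIs were assigned to a class by marker score, 19870 and 13564 in all. Called doublets (7.81% and 2.63% of kept barcodes, Scrublet in scanpy 1.11.5) were kept, also where they made up more of a class (19.5% of Lcn2-low AT2 cells in Pclaf WT), and left out in an alternative. Counts were summed per class and library, scaled to UMIs per 1000000, and compared as log2 ratios with exact conditional 95% Poisson intervals (scipy 1.17.1, numpy 2.4.6, pandas 2.3.3, python 3.11.15). These cover counting error only. The interval code was tested on simulated data. TMM factors came from edgeR 4.0.16 in R 4.3.3. A gene passed with 50 UMIs over both classes. All 35 members are accounted for, with full values for those that differ by 1 log2 unit or lead their role. The members and lists were chosen with earlier results of these data known.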

Additional observations from a re-analysis of the deposited data

Results flagged for a closer look

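For 2 members the log2 ratio had opposite signs in the libraries, with both counting intervals clear of 0, and the difference between the libraries was not tested. Srebf2 in transitional over Lcn2-low AT2 cells had 0.97 in Pclaf WT and -0.89 in Pclaf KO, a difference of -1.86, but 121 of its 231 UMIs in Pclaf WT transitional cells came from 1 barcode, and the Pclaf WT ratio was -0.08 without it. Fabp5 in cycling over other AT2 cells had 0.41 (0.21 to 0.61) in Pclaf WT, at 1007 against 757 CPM, and -0.57 (-0.64 to -0.50) in Pclaf KO, at 702 against 1042, a difference of -0.98. The Pclaf WT value rests on 32 cycling cells and the Pclaf KO value on 239.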

How the results depend on the processing

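The 27 list medians were recomputed under up to 19 settings, giving 429 values, of which 376 lay close to the reported median, given its counting bounds, 50 lay further off, and 3 had the opposite sign to a median whose bounds excluded 0. The fatty acid median kept its sign in every setting for the 4 cell class comparisons of both libraries. The sterol median of Lcn2-high cells, whose bounds held 0, kept its sign in 16 of 19 settings in each library, and that of Pclaf KO alveolar macrophages in 7 of 15. Where a cause is not plain from the setting itself, the cause was not tested. The settings that used Xist-only or Y-only cells alone, or left out cycling cells or the top barcode of each gene, were chosen after seeing the data. No paired analysis was possible because the genotypes share only replicate number 1. All values below are median log2 ratios over Lcn2-low AT2 cells unless named otherwise.

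The 3 opposite signs were those of the phospholipid genes in AT1 cells of Pclaf WT (0.015 in Xist-only and 0.27 in Y-only cells) and in alveolar macrophages of Pclaf KO (0.037 after thinning to 1000 UMIs).

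Thinning also gave, for Lcn2-high cells, 0.58 (Pclaf WT) and 0.36 (Pclaf KO) for fatty acid and -0.94 and -0.68 for phospholipid genes. For Pclaf KO it gave -2.33 (fatty acid) and 0.076 (sterol) in transitional and -2.68 and -1.45 in AT1 cells. For Pclaf WT alveolar macrophages it gave -2.49 (fatty acid) and -1.06 (phospholipid), and for Pclaf KO over Pclaf WT -0.27 (phospholipid).

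TMM factors gave 0.43 for fatty acid genes in Lcn2-high cells of Pclaf KO. They gave -2.58, -1.41 and -0.84 for fatty acid, phospholipid and sterol genes in transitional and -2.61, -0.70 and -1.28 in AT1 cells of Pclaf KO, and 0.28 and 0.17 for fatty acid and phospholipid genes of Pclaf KO over Pclaf WT. Leaving surfactant, mitochondrial and ribosomal protein genes out of the totals gave -2.28 and -1.11 (fatty acid, phospholipid) in transitional and -2.57 and -0.66 in AT1 cells of Pclaf KO, and -2.38 (fatty acid) in Pclaf WT alveolar macrophages.

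Xist-only cells of Pclaf WT gave 0.12 for phospholipid genes in Lcn2-high cells, -1.96 and -1.01 for phospholipid and sterol genes in transitional cells, and -1.06 for phospholipid genes in alveolar macrophages, where Y-only cells gave -1.24. Y-only cells of Pclaf KO gave 0.39, -0.084 and -0.15 for the 3 lists in Lcn2-high cells, -2.36 and -0.50 (fatty acid, phospholipid) in transitional cells, -1.63 (fatty acid) in AT1 cells and -0.85 (sterol) in alveolar macrophages.

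With no upper limit on detected genes the fatty acid median was -1.77 in Pclaf WT alveolar macrophages and -1.79 in Pclaf KO transitional cells. With at least 1 UMI on each side it was -1.81 and -1.83 in those classes and 0.13 in Lcn2-high cells of Pclaf KO. With at least 200 UMIs per gene the phospholipid median of Pclaf WT was -0.029 in AT1 cells and -1.14 in alveolar macrophages. Equal cell weights gave -2.37 (fatty acid) in the latter. In Pclaf KO, doubled Lcn2 limits gave -0.64 (phospholipid) and nuclear-poor barcodes 0.13 (fatty acid) in Lcn2-high cells, and a larger lead of the first class or clusters gave -1.07 or -0.53 (phospholipid) in transitional cells. Without called doublets the fatty acid median of Pclaf KO over Pclaf WT was -0.030.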
